A study of Mus musculus with 12 samples.

Results

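The genes described here are 10 genes of surfactant and of the alveolar type 2 cell: Sftpa1, Sftpb, Sftpc, Sftpd, Abca3, Lpcat1, Lamp3, Napsa, Slc34a2 and Nkx2-1. They were taken by symbol, through the RefSeq accession given for each probe, from 13649 named genes that were measured. The 10 genes have 16 probes. All 10 were well above background on all 12 arrays, so none was lost to the filter on dim probes. RNA of whole mouse lung was hybridised to Agilent arrays in 1 colour, 3 arrays in each of 4 groups. All mice were of the FVB/N strain (FVB/NJ in a second label), female by the labels and 7 weeks old at the start. The PBS group received saline for 16 weeks. The LPS group was given bacterial endotoxin into the nose at 5 ug per mouse, weekly over 16 weeks. In the NNK group, a nitrosamine carcinogen of tobacco was injected into the peritoneum at 3 mg per mouse during the first 4 weeks. The LPS/NNK group had both agents, and lungs were taken 1 week after the last treatment. No sham instillation is named for the NNK mice, and the labels do not say whether lung tumours were part of the tissue. They also do not say that each array is a separate mouse, so p-values measure only the spread between these samples. In bulk lung RNA, fewer cells of a type and less RNA per cell cannot be told apart.

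Alveolar type 2 cells make surfactant, the film of lipid and protein that keeps alveoli open at low lung volume. Its lipid is built in the cell, moved by the transporter ABCA3 into storage organelles called lamellar bodies, and secreted with the small hydrophobic proteins SP-B and SP-C. SP-A and SP-D are collectins, soluble lectins that bind microbes and act on macrophages. NKX2-1 is the homeodomain factor on which lung epithelium depends for its surfactant genes, and it marks the lineage of many lung adenocarcinomas.

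The bases before the transcription start of Sftpb and Sftpa1 are shown because Sftpb passed the test as lower in LPS/NNK than in NNK and Sftpa1 did not, and because both stretches hold core motifs of NKX2-1. Each is 250 bases from RefSeq (build GRCm38.p6) on the plus strand, with motif matches in capitals, Sftpb at chr6:72304360-72304609 and Sftpa1 at chr14:41131538-41131787.
Sftpb: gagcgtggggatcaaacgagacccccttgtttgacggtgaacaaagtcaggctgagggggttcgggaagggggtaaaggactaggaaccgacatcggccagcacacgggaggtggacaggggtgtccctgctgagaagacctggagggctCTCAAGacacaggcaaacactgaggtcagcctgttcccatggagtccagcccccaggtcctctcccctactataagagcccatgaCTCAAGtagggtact
Sftpa1: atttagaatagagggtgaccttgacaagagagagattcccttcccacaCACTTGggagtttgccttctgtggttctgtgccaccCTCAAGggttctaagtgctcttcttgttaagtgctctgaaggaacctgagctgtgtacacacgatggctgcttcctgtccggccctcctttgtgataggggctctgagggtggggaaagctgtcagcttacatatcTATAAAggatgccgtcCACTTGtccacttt
Motifs were searched on both strands in windows of 250 bases before and 50 bases after the start. They were the NKX2-1 core CTCAAG, a second NKX2-1 core spelled CAAGTG, the FOXA motif TGTTTAC, the C/EBP motif TTGCNNAA and the TATA box TATAAA. Sftpb held CTCAAG 2 times, at bases 151 to 156 and 236 to 241 counted from the first base shown. Sftpa1 held CTCAAG at bases 85 to 90 and TATAAA at bases 221 to 226. On the minus strand it held CAAGTG at bases 49 to 54 and 237 to 242. No match overlapped another in these genes. Of 32851 promoters of the same length, 15.9% held CTCAAG, 13.6% held CAAGTG, 3.65% held the FOXA motif, 10.8% held the C/EBP motif and 13.6% held the TATA box. An entry was matched for 7 of the 10 genes, that is, all but Sftpc, Sftpd and Napsa. Among the other 5 matched promoters Lamp3 held the FOXA motif and Slc34a2 the C/EBP motif, and no match was found in those of Abca3, Lpcat1 and Nkx2-1. These are matches of letters and not measured sites.

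Every value set against PBS shares a difference in signal between the PBS arrays and the rest. Spots marked well above background made up 70.2% to 73.1% of each PBS array, but 55.6% to 67.5% of each array of treated mice. The 75th percentile of the processed signal, by which each array was scaled, was 746 to 1062 on PBS arrays and 202 to 556 on treated arrays. The upper tail was longer on treated arrays: the 99th percentile lay 5.66 to 6.26 above the 75th on the log2 scale, against 4.85 to 5.11 on PBS arrays. All 4 Y-linked genes examined were above background and Xist was not on the arrays labelled PBS 1 and PBS 2, while PBS 3 and the 9 treated arrays showed the reverse. Arrays labelled PBS 1 and PBS 2 therefore go against the label of female mice. Values of the 10 genes and counts of several gene lists with PBS 3 as the only control array are given beside the results. Slides held arrays of different groups only for PBS 3 with NNK 2, PBS 1 with LPS/NNK 6, NNK 3 with LPS/NNK 2 and NNK 5 with LPS/NNK 3. No LPS array shared a slide with another group.

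Levels below are log2 of the processed signal minus the array's 75th percentile, and differences are between group means of these levels. A difference was called at an adjusted p under 0.05 (limma's moderated test, Benjamini-Hochberg over 21856 genes and unnamed transcripts). In LPS against PBS 9 of the 10 genes were called, 8 higher and Lamp3 lower, beside 56.1% of all items called (25.1% higher and 31.0% lower). In NNK against PBS 9 of 10 were called, all higher, beside 51.9% of all items (27.2% higher and 24.6% lower). Of the 10 genes 6 were called in LPS/NNK against PBS, all higher, beside 55.4% of all items (27.0% higher and 28.4% lower). Read against the share of items that were higher, 8, 9 and 6 of 10 are above it, and read against the share called in either direction, the 6 of 10 in LPS/NNK are near it. The median difference of the 10 genes was 0.93, 1.42 and 0.98 in these comparisons, against -0.10, 0.01 and -0.08 over all items. These rises hold on the 75th percentile scale. Quantile and cyclic loess normalization made the differences of Sftpa1, Sftpc and Sftpd negative, except 0.05 for Sftpc in LPS/NNK under quantile normalization. Scaling on spiked control RNA turned every rise into a lower value. Of the 10 genes, 3, 4 and 4 were called with PBS 3 as the only control array, all higher, where 26.6%, 19.6% and 30.7% of all items were called. The 3 comparisons share the PBS arrays.

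Between the treated groups few of the genes were called by their brightest probes, which stand for them here. Set against NNK, LPS/NNK had 1 of 10 called, Sftpb, which fell, beside 17.6% of all items (7.77% higher and 9.80% lower). Set against LPS, LPS/NNK had none called and 3 had an unadjusted p under 0.05, beside 4.16% of all items called by limma (2.87% higher and 1.29% lower). In LPS against NNK none was called and 1 had an unadjusted p under 0.05, beside 6.39% of all items called (2.73% higher and 3.66% lower). The interaction, the difference made by LPS with NNK minus the difference made by LPS without it, was called for 6 of 10 genes, beside 39.0% of all items (20.8% higher and 18.2% lower). Of the 6, 5 were negative (Sftpb, Nkx2-1, Lpcat1, Slc34a2 and Napsa) and Lamp3 was positive. The PBS mean is part of this term, so a difference of PBS from all treated arrays enters it with its sign turned. On the scale of spiked control RNA the interactions of Lpcat1, Napsa, Slc34a2 and Nkx2-1 turned positive, none of those 4 being called.

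**Figure D1:**
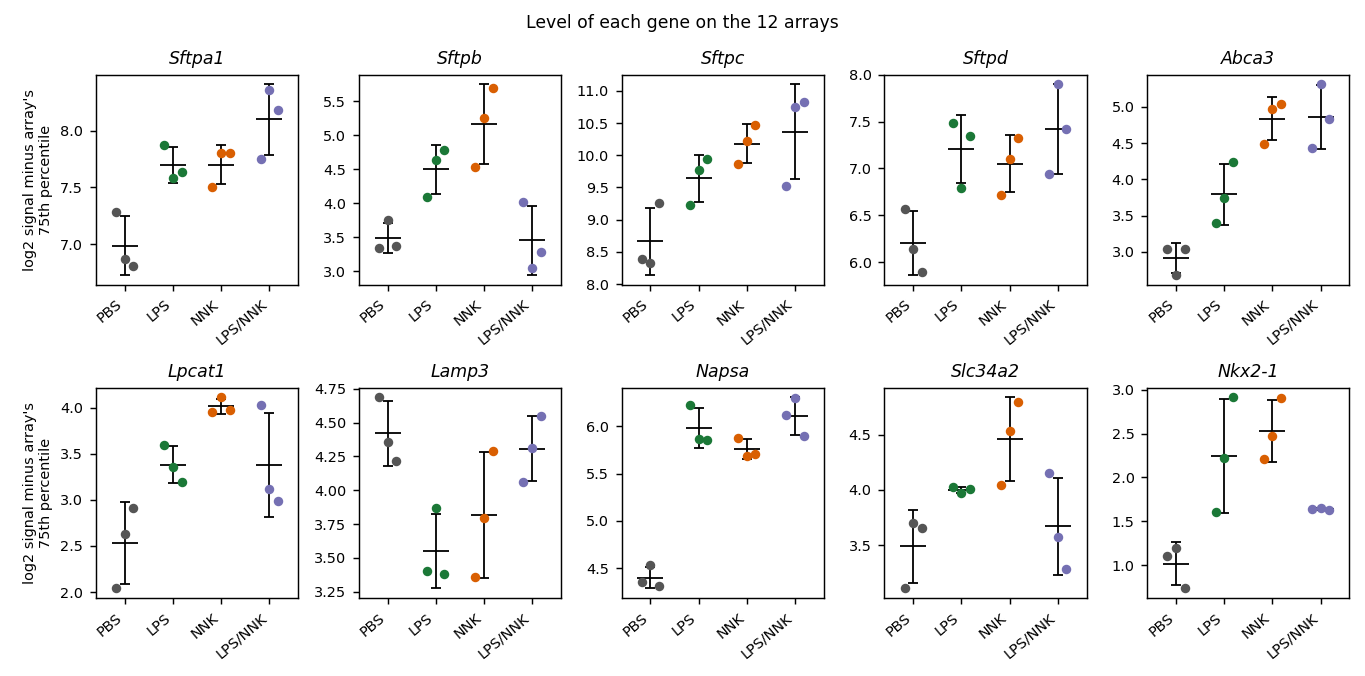
Level of each of the 10 genes on each array (vertical axes, log2 signal minus the array's 75th percentile, on ranges of their own) in the 4 groups; each point is 1 array, and the bar and whiskers are the mean and SD of 3 arrays. Sftpb reads 3.05 to 4.02 in LPS/NNK against 4.54 to 5.70 in NNK, while Lamp3 is highest in PBS by its mean; the treated arrays lie above PBS for Napsa and Abca3 on this scale, and not on the scale of spiked control RNA.

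Sftpb encodes SP-B, the protein that spreads and packs surfactant lipid and is needed for lamellar bodies to form. Its level on the arrays PBS 1, 2 and 3 was 3.34, 3.75 and 3.38, and on LPS 1, 5 and 6 it was 4.09, 4.63 and 4.78. On NNK 2, 3 and 5 it was 4.54, 5.26 and 5.70, and on LPS/NNK 2, 3 and 6 it was 4.02, 3.05 and 3.29. The NNK arrays were all above the LPS/NNK arrays, and the LPS/NNK arrays overlapped with PBS. Sftpb rose with NNK by 1.67 (SE 0.34, adjusted p = 0.00157) and with LPS by 1.01 (SE 0.34, adjusted p = 0.0210). The rise in LPS lost its call under quantile normalization (0.49), cyclic loess (0.33) and normexp (0.93). That in NNK kept it under quantile normalization (1.14) and cyclic loess (0.96) and lost it after normexp (1.08). On the scale of spiked control RNA they were -1.49 in LPS and -1.04 in NNK. In LPS/NNK the difference from PBS was -0.04 (95% interval -0.76 to 0.69, adjusted p = 0.934). In LPS/NNK Sftpb was lower than in NNK by 1.71 (SE 0.34, adjusted p = 0.00511), which is 3.27-fold, and the processed signal before scaling showed the same order. That signal was 10406 to 15052 on NNK arrays and 1763 to 9044 on LPS/NNK arrays. It did not show the rise in LPS, being 7248 to 9063 on LPS arrays and 7749 to 13500 on PBS arrays. Within a slide the difference between LPS/NNK and NNK was -1.23 on slide 6 and -2.64 on slide 7. Against LPS it was -1.05 (SE 0.34, adjusted p = 0.0851), each LPS/NNK array lying below each LPS array, and -1.33 (adjusted p = 0.0176) without the array LPS/NNK 2. The order of the means was NNK, LPS, PBS and LPS/NNK. NNK and LPS did not pass the test against each other (-0.66 for LPS against NNK, adjusted p = 0.292), nor did PBS and LPS/NNK. The fall against NNK kept its call in 23 of 25 alternatives and lost it after normexp (-1.37, adjusted p = 0.260) and on the scale of spiked control RNA (-1.90, adjusted p = 0.0651). With PBS 3 as the only control array, Sftpb in LPS against PBS was 1.12 (adjusted p = 0.119) and in NNK against PBS 1.79 (adjusted p = 0.0341).

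Sftpa1 and Sftpd encode the collectins SP-A and SP-D. The genes lie on chromosome 14 with 2 annotated genes between them, the collectin gene Mbl1 and the pseudogene Gm7920. Sftpa1 read 7.29, 6.87 and 6.80 on PBS 1, 2 and 3, 7.88, 7.58 and 7.64 on LPS 1, 5 and 6, 7.50, 7.80 and 7.80 on NNK 2, 3 and 5, and 7.75, 8.36 and 8.18 on LPS/NNK 2, 3 and 6. All 9 treated arrays were above the 3 PBS arrays. Sftpa1 differed from PBS by 0.71 (SE 0.24, adjusted p = 0.0226) in LPS, 0.71 (adjusted p = 0.0244) in NNK and 1.11 (adjusted p = 0.00170) in LPS/NNK. Before scaling the order was not this one: the processed signal of Sftpa1 was 83372 to 165590 on PBS arrays and 55942 to 124930 on treated arrays. Under quantile normalization Sftpa1 was lower in LPS than in PBS (-0.78, adjusted p = 0.0189), the only such turned value with a call among its quantile and cyclic loess values. Its second, dimmer probe gave -0.27, -0.47 and -0.32 against PBS in LPS, NNK and LPS/NNK (adjusted p from 0.234 to 0.500).

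Sftpd read 6.57, 6.14 and 5.90 on PBS 1, 2 and 3 and 7.49, 6.80 and 7.35 on LPS 1, 5 and 6. It read 6.72, 7.10 and 7.33 on NNK 2, 3 and 5 and 6.94, 7.90 and 7.42 on LPS/NNK 2, 3 and 6, so that all treated arrays were above PBS. The differences from PBS were 1.01 (SE 0.30, adjusted p = 0.0129) in LPS, 0.85 (adjusted p = 0.0326) in NNK and 1.22 (adjusted p = 0.00430) in LPS/NNK. Quantile normalization gave -0.16, -0.13 and -0.09 for these differences, none called. Both collectin genes had their highest mean in LPS/NNK. None of the differences among the treated groups passed the test for either gene, the intervals of LPS/NNK against NNK being -0.12 to 0.92 for Sftpa1 and -0.28 to 1.03 for Sftpd. With PBS 3 as the only control array, Sftpa1 differed by 0.89, 0.90 and 1.29 (adjusted p = 0.0851, 0.0964 and 0.0206) and Sftpd by 1.31, 1.15 and 1.52 (adjusted p = 0.0495, 0.0872 and 0.0255).

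Sftpc encodes SP-C, the surfactant protein made by alveolar type 2 cells alone. It read 8.39, 8.33 and 9.26 on PBS 1, 2 and 3, 9.23, 9.77 and 9.94 on LPS 1, 5 and 6, 9.87, 10.22 and 10.46 on NNK 2, 3 and 5, and 9.52, 10.76 and 10.83 on LPS/NNK 2, 3 and 6. PBS 3 was above LPS 1, and the NNK and LPS/NNK arrays were all above PBS. Sftpc differed from PBS by 0.98 (SE 0.37, adjusted p = 0.0378) in LPS, 1.52 (SE 0.37, adjusted p = 0.00479) in NNK and 1.71 (SE 0.37, adjusted p = 0.00182) in LPS/NNK. The processed signal before scaling was 322570 to 458340 on PBS arrays, 254380 to 319810 on LPS arrays, 398760 to 419390 on NNK arrays and 368080 to 407800 on LPS/NNK arrays. It therefore varied less than the 75th percentile that divides it, and no spot was marked saturated. With PBS 3 as the only control array the differences were 0.38, 0.92 and 1.11, with adjusted p = 0.597, 0.214 and 0.124. Under quantile normalization they were -0.41, -0.16 and 0.05, none called. The interval of LPS/NNK against NNK was -0.62 to 0.99.

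**Figure D2:**
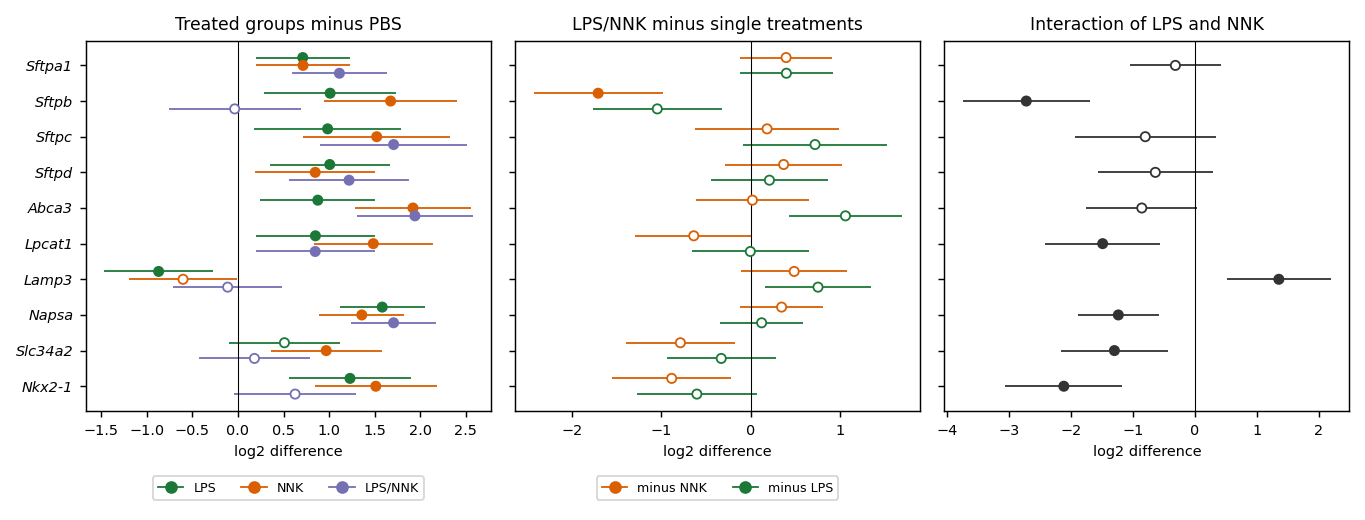
Log2 differences of the 10 genes (horizontal axes) with 95% intervals from the fit over 12 arrays, filled where the adjusted p is under 0.05: treated groups minus PBS, LPS/NNK minus each single treatment, and the interaction. Among these values, of each gene's brightest probe, only Sftpb is called between treated groups (-1.71 against NNK), and Lamp3 is the only gene whose interaction is called above 0 (1.36); the differences from PBS hold for the 75th percentile scale, and those of Sftpa1 and Sftpd turn negative under quantile normalization.

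Abca3, the transporter that loads lipid into lamellar bodies, had the largest differences from PBS among the 10 genes in NNK and in LPS/NNK on the 75th percentile scale. It read 3.04, 2.68 and 3.03 on PBS 1, 2 and 3, 3.40, 3.74 and 4.24 on LPS 1, 5 and 6, 4.49, 4.98 and 5.04 on NNK 2, 3 and 5, and 4.43, 5.32 and 4.83 on LPS/NNK 2, 3 and 6. The groups PBS and LPS did not overlap with each other, and both lay below all arrays given NNK. Abca3 rose by 0.88 (SE 0.29, adjusted p = 0.0216) in LPS, 1.92 (SE 0.29, adjusted p = 0.000362) in NNK and 1.94 (SE 0.29, adjusted p = 0.000144) in LPS/NNK. The last 2 rises kept their sign and their call under normexp (1.27 and 1.66), quantile normalization (1.46 and 1.27), cyclic loess (1.22 and 1.12) and PBS 3 as the only control array (1.80 and 1.82), and were -0.80 and -0.96, not called, on the scale of spiked control RNA. The rise in LPS lost its call under normexp (0.67), quantile normalization (0.42) and cyclic loess (0.20), and was -1.63 on the scale of spiked control RNA. LPS was lower than NNK by 1.04 (SE 0.29, adjusted p = 0.0514) and lower than LPS/NNK by 1.06 (SE 0.29, adjusted p = 0.0571), which missed the threshold. The dimmer probes gave -0.53 and -0.38 for LPS against NNK and, opposite in sign to the brightest probe, -0.21 and -0.49 for LPS/NNK against LPS, none of them called. For the brightest probe, both passed without the array LPS 6 (-1.26, adjusted p = 0.0228, and 1.29, adjusted p = 0.0462), and without LPS/NNK 2 as well (adjusted p = 0.0325 and 0.0129). The rise in LPS was 0.76 (adjusted p = 0.216) with PBS 3 as the only control array.

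Lpcat1 is the enzyme that remodels phosphatidylcholine into the saturated form that surfactant needs. It read 2.04, 2.63 and 2.91 on PBS 1, 2 and 3 and 3.59, 3.36 and 3.19 on LPS 1, 5 and 6. On NNK 2, 3 and 5 it read 3.95, 4.11 and 3.98, and on LPS/NNK 2, 3 and 6 it read 4.03, 3.11 and 2.99. LPS/NNK 2 lay with the NNK arrays and the other LPS/NNK arrays lay below them. Lpcat1 rose by 1.48 (SE 0.30, adjusted p = 0.00173) in NNK, 0.85 (adjusted p = 0.0291) in LPS and 0.85 (adjusted p = 0.0297) in LPS/NNK, all on the 75th percentile scale and all lower than PBS on the scale of spiked control RNA. Quantile normalization kept the call in NNK (1.07, adjusted p = 0.0227) and not those in LPS (0.45) and LPS/NNK (0.34), and after normexp none of the 3 was called. LPS/NNK against NNK was -0.64 (SE 0.30, adjusted p = 0.162) and -0.96 without LPS/NNK 2 (adjusted p = 0.0210). The interaction was -1.49 (SE 0.43, adjusted p = 0.0167), and was not called under quantile normalization (-1.19), cyclic loess (-1.04), normexp (-0.99) or with PBS 3 alone (-1.10, adjusted p = 0.157). With PBS 3 as the only control array the differences from PBS were 0.46, 1.10 and 0.46 in LPS, NNK and LPS/NNK, none called.

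Lamp3 encodes DC-LAMP, a membrane protein of lamellar bodies that mature dendritic cells also make. It was the only one of the 10 genes lower in each treated group by its mean. It read 4.69, 4.36 and 4.22 on PBS 1, 2 and 3, 3.40, 3.87 and 3.38 on LPS 1, 5 and 6, 3.36, 3.80 and 4.29 on NNK 2, 3 and 5, and 4.06, 4.31 and 4.55 on LPS/NNK 2, 3 and 6. Lamp3 fell by 0.87 in LPS (SE 0.28, adjusted p = 0.0167), and all LPS arrays were below PBS. The differences were -0.60 in NNK (adjusted p = 0.0821) and -0.11 in LPS/NNK (95% interval -0.71 to 0.48). Both were called as lower under quantile normalization (-1.26 and -0.95, adjusted p = 0.00205 and 0.00864) and cyclic loess (-1.29 and -0.92, adjusted p = 0.00184 and 0.0104), and were -0.40 and 0.09, not called, with PBS 3 alone. The value in LPS kept its sign in all 26 alternatives and its call in 23, and it was larger under quantile normalization (-1.51, adjusted p = 0.000549). It lost its call after normexp (-0.97, adjusted p = 0.144), without PBS 1 (-0.74, adjusted p = 0.0699) and with PBS 3 as the only control array (-0.67, adjusted p = 0.243). The interaction was 1.36 (SE 0.39, adjusted p = 0.0165), and 1.16 (adjusted p = 0.137) with PBS 3 alone. Both other probes of Lamp3 gave larger values: -1.84 and -1.46 in LPS, -1.44 and -1.08 in NNK, and interactions of 2.52 and 1.996, all called. In LPS/NNK they gave -0.76 (adjusted p = 0.0325) and -0.55 (adjusted p = 0.0745) against PBS. Both were called as higher in LPS/NNK than in LPS, by 1.08 (adjusted p = 0.0415) and 0.92 (adjusted p = 0.0471), where the brightest probe gave 0.76 (adjusted p = 0.116).

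Napsa encodes napsin A, an aspartic protease that processes the SP-B precursor. It had the smallest spread of the 10 genes on PBS arrays and the smallest adjusted p against PBS in LPS and LPS/NNK. It read 4.36, 4.53 and 4.32 on PBS 1, 2 and 3, 6.22, 5.87 and 5.86 on LPS 1, 5 and 6, 5.88, 5.69 and 5.70 on NNK 2, 3 and 5, and 6.12, 6.30 and 5.90 on LPS/NNK 2, 3 and 6. All treated arrays were above all PBS arrays. Napsa rose by 1.58 (SE 0.22, adjusted p = 9.75e-05) in LPS, 1.36 (adjusted p = 0.000444) in NNK and 1.71 (adjusted p = 4.29e-05) in LPS/NNK. These rises kept their sign under quantile normalization (0.84, 0.69 and 0.76, all called) and with PBS 3 as the only control array (1.67, 1.44 and 1.79, all called). Under cyclic loess all 3 lost their call (0.65, 0.40 and 0.57, adjusted p = 0.0532, 0.217 and 0.0866), as did the rise in NNK after normexp (0.74, adjusted p = 0.104). They became -0.92, -1.36 and -1.20 on the scale of spiked control RNA. No difference among the treated groups passed the test, the interval of LPS/NNK against NNK being -0.12 to 0.81. The interaction was -1.23 (SE 0.31, adjusted p = 0.00847) and was not called with PBS 3 as the only control array (-1.32, adjusted p = 0.0591), under quantile normalization (-0.77, adjusted p = 0.0884), cyclic loess (-0.49, adjusted p = 0.314) or normexp (-0.67, adjusted p = 0.423).

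Slc34a2 encodes NaPi-IIb, the phosphate transporter of the apical membrane of alveolar type 2 cells. It read 3.11, 3.70 and 3.66 on PBS 1, 2 and 3, 4.02, 3.97 and 4.00 on LPS 1, 5 and 6, 4.05, 4.53 and 4.79 on NNK 2, 3 and 5, and 4.15, 3.57 and 3.29 on LPS/NNK 2, 3 and 6. Slc34a2 rose in NNK by 0.97 (SE 0.28, adjusted p = 0.0125), a value that was -1.75 on the scale of spiked control RNA. The rise lost its call under quantile normalization (0.42, adjusted p = 0.277), cyclic loess (0.30, adjusted p = 0.462), normexp (0.36, adjusted p = 0.541), the slide as a fixed effect (0.63, adjusted p = 0.214) and PBS 3 as the only control array (0.80, adjusted p = 0.179). In LPS the difference was 0.51 (adjusted p = 0.139), although the LPS arrays lay above the PBS arrays, and in LPS/NNK it was 0.18 (95% interval -0.43 to 0.79). LPS/NNK against NNK was -0.79 (SE 0.28, adjusted p = 0.0705), and -1.03 without LPS/NNK 2 (adjusted p = 0.0171). The interaction was -1.30 (SE 0.40, adjusted p = 0.0223) and lost its call without PBS 1 (-1.11), NNK 3 (-1.26), NNK 5 (-1.13) or LPS/NNK 6 (-1.11), with adjusted p from 0.0510 to 0.0606. It was also not called under quantile normalization (-0.87), cyclic loess (-0.77), normexp (-0.76) or with PBS 3 alone (-1.13, adjusted p = 0.142).

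Nkx2-1 was measured by 1 probe printed at 10 spots, of which 8 were used on LPS/NNK 2. The SD over spots of an array was 0.04 to 0.07, smaller than the SD over arrays of a group in PBS, LPS and NNK (0.25 to 0.65). It read 1.11, 1.20 and 0.74 on PBS 1, 2 and 3, and 1.60, 2.22 and 2.91 on LPS 1, 5 and 6. It read 2.20, 2.48 and 2.90 on NNK 2, 3 and 5, and 1.65, 1.65 and 1.63 on LPS/NNK 2, 3 and 6. The LPS/NNK arrays were all above PBS and all below NNK. Nkx2-1 rose by 1.23 (SE 0.31, adjusted p = 0.00476) in LPS and 1.51 (SE 0.31, adjusted p = 0.00178) in NNK. Both rises kept their sign and call under quantile normalization (1.01 and 1.29), cyclic loess (0.95 and 1.19) and PBS 3 as the only control array (1.51 and 1.79), and were -1.27 and -1.21 on the scale of spiked control RNA. After normexp both rises kept their sign and lost their call (1.09 and 0.98, adjusted p = 0.0832 and 0.0766). In LPS/NNK the difference from PBS was 0.63 (95% interval -0.04 to 1.30, adjusted p = 0.102). LPS/NNK against NNK was -0.88 (SE 0.31, adjusted p = 0.0647), on slide 6 -0.83 and on slide 7 -1.25. That value passed the threshold with the slide as a random block (-0.93, adjusted p = 0.0287) and without LPS 1 (adjusted p = 0.0336) or LPS 6 (adjusted p = 0.0299), whose spread enters the shared error. The interaction was -2.11 (SE 0.44, adjusted p = 0.00401), second in size to that of Sftpb (-2.72, SE 0.48, adjusted p = 0.00208). With PBS 3 as the only control array these interactions were -2.39 (adjusted p = 0.0307) and -2.83 (adjusted p = 0.0256), the only 2 of the 6 that kept their call. On the scale of spiked control RNA they were 0.20 and -0.40, and after normexp -1.61 and -2.30, without calls. The medians of all items in these 2 settings were 2.35 and -0.38.

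**Figure D3:**
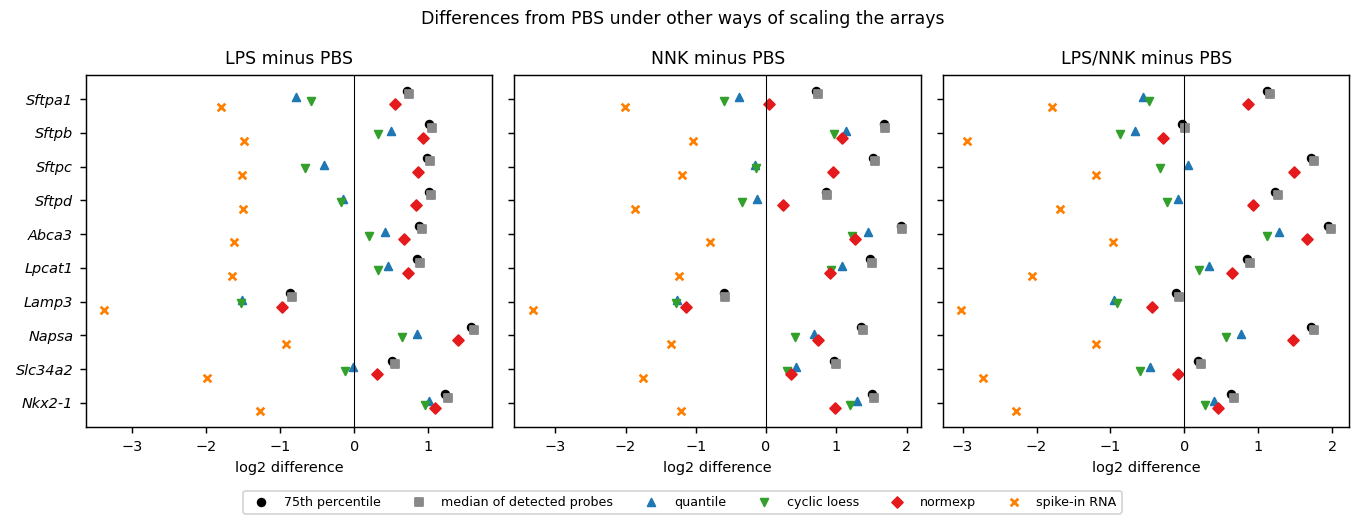
Difference from PBS of each of the 10 genes in LPS, NNK and LPS/NNK (horizontal axes, log2) under 6 ways of scaling or background correction, 1 symbol each. Abca3, Lpcat1, Napsa and Nkx2-1 stay above 0 under 5 of them. Sftpa1 and Sftpd lie below 0 under quantile and cyclic loess normalization in all 3 comparisons. On the scale of spiked control RNA all values are below 0, from -0.80 to -3.37.

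The choice of scaling moved these genes unevenly. The median of all items moved by at most 0.10 under quantile normalization, cyclic loess or centring on the median of detected probes in the comparisons with PBS. It moved to 0.31, 0.56 and 0.52 after normexp, and to -2.60, -2.71 and -2.98 on the scale of spiked control RNA. On that last scale the spiked RNA read 1.42 to 3.30 above the 75th percentile on treated arrays and -0.50 to 0.12 on PBS arrays. Of all called items, 44.7%, 52.5% and 48.7% were higher in LPS, NNK and LPS/NNK against PBS. After normexp 61.4%, 82.1% and 77.4% were higher, and on the scale of spiked control RNA 0.976%, 0.135% and 0.781%. In LPS/NNK against NNK 44.2% of 3839 called items were higher, and 93.9% of 327 after normexp. In LPS/NNK against LPS the share was 68.9% of 910, 56.8% of 969 under cyclic loess and 21.5% of 93 by spiked RNA. In LPS against NNK it was 42.7% of 1396, 55.1% of 1144 by quantile normalization and 59.5% of 1167 by cyclic loess. After normexp it was 87.8% of 213, and by spiked RNA 86.3% of 371. In the interaction it was 53.3% of 8520, 65.7% of 35 after normexp and 99.8% of 13718 by spiked RNA. Within slide 5, NNK 2 was above PBS 3 in 9 of 10 genes (median 0.93), and within slide 8, LPS/NNK 6 was above PBS 1 in 8 of 10 (median 0.87), both on the 75th percentile scale.

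Probes of the same gene did not always move together. Abca3 was the clearest case: all 3 probes rose in LPS, NNK and LPS/NNK, but its dimmer probes parted from the brightest one in LPS/NNK. Their differences between LPS/NNK and NNK were -0.74 (adjusted p = 0.0605) and -0.88 (adjusted p = 0.0412), against 0.02 for the brightest probe. Their interactions were -2.04 and -2.06, both called, against -0.85 (adjusted p = 0.116). Sftpa1's dimmer probe did not pass the test in any comparison and its sign against PBS was opposite to that of the brighter probe. The dimmer probe of Slc34a2 gave 0.68 in NNK (adjusted p = 0.0767) and an interaction of -0.56 (adjusted p = 0.310). The files used here hold no probe sequences, and which transcript each probe reads was not tested.

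**Figure D4:**
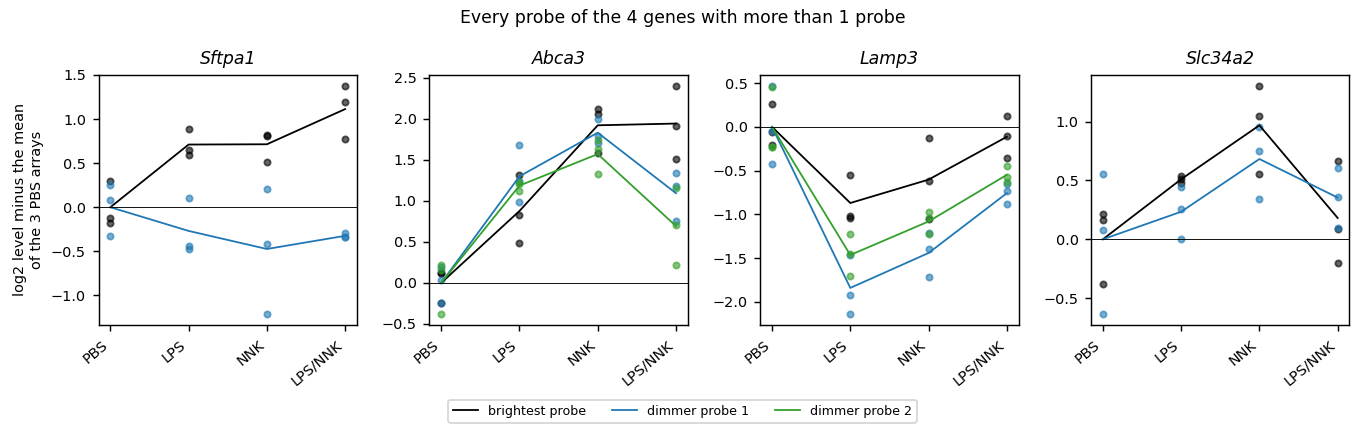
Level of every probe of Sftpa1, Abca3, Lamp3 and Slc34a2, minus that probe's mean over the 3 PBS arrays (vertical axes, log2), by group; points are arrays and lines join group means. The Abca3 probes part in LPS/NNK (1.94 for the brightest, 1.09 and 0.69 for the dimmer ones) and the Sftpa1 probes part in all treated groups (1.11 and -0.32 in LPS/NNK), on the 75th percentile scale.

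The lists of other genes that follow are read beside the shares of all items called in LPS, NNK and LPS/NNK against PBS, 56.1%, 51.9% and 55.4%, in LPS/NNK against NNK, 17.6%, and in the interaction, 39.0%. With PBS 3 as the only control array these shares were 26.6%, 19.6%, 30.7%, 13.1% and 12.3%. On the scale of spiked control RNA the shares were 88.6%, 91.5%, 91.4%, 3.13% and 62.8%. Nearly all of those calls against PBS were lower and nearly all called interactions positive. No gene of the 5 pathway lists was called as higher than PBS on that scale, and all calls against PBS in these lists were lower. On that scale the interaction was called as positive for 7 to 15 genes of each of these lists and as negative for 1 gene in all, and 0 to 2 genes of each list were called in LPS/NNK against NNK.

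Other genes of the alveolar type 2 cell were divided in direction. Of 24 measured identity genes outside the 10, 4 rose in LPS against PBS (Chil1, Muc1, Mlc1 and Cbr2, by 1.08 to 2.12) and 5 fell (Bex4, Bex2, Cd36, Hopx and Hc, -3.22 to -1.47). In NNK 6 rose and 2 fell (Cd36 and Hopx), and in LPS/NNK 7 rose and 7 fell. Called genes were thus 9, 8 and 14 of 24, below the share of all items in LPS and NNK and near it in LPS/NNK. The counts with PBS 3 alone were 2, 3 and 2 higher and 5, 1 and 3 lower. Their median differences were -0.10, 0.29 and -0.10. Muc1, a cell-surface mucin, rose in NNK by 2.59 (SE 0.54), and Hopx, a homeodomain gene also used by alveolar type 1 cells, fell (-1.48, SE 0.27). From NNK to LPS/NNK 4 fell and none rose. They were Muc1 (-2.28, SE 0.54), Etv5 (-1.67, SE 0.40), the desaturase gene Scd1 (-1.51, SE 0.31) and the fatty acid receptor gene Cd36 (-1.34, SE 0.25). ETV5 is an ETS factor that maintains alveolar type 2 identity, and Etv5 was the 1 gene of the list called in LPS/NNK against LPS (-1.69, SE 0.40, adjusted p = 0.0365). In LPS against NNK 3 fell (Bex2, Bex4 and Cd36). The interaction was called for 5 of 24, negative for Muc1 (-4.41, SE 0.76), Etv5 (-2.06), Scd1 (-1.27) and Erbb3 (-1.13) and positive for Hopx (1.50, SE 0.38), a smaller share than that of all items, and with PBS 3 alone for 1 of 24.

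Genes that make or take up the lipid of surfactant had more rises than falls against PBS. Of 27 measured, 10 rose in LPS against PBS and 13 in NNK, and the same 3 genes fell in both, Cept1, Elovl6 and Pla2g4a (-1.43 to -0.81). In LPS/NNK 9 rose and 6 fell. Called genes were 13, 16 and 15 of 27, near the shares of all items, while 25.1%, 27.2% and 27.0% of all items were higher. With PBS 3 alone 8, 11 and 8 rose and 2, 3 and 2 fell. The median differences were 0.46, 0.72 and 0.17. The fatty acid synthase gene Fasn rose by 1.73 in LPS and 2.33 in NNK (SE 0.30). Srebf1, which drives lipogenic genes, rose by 1.66 and 1.77 (SE 0.27), and Scap, the escort of its protein, by 1.60 and 1.73 (SE 0.24). From NNK to LPS/NNK 7 of 27 fell and the phospholipase gene Pla2g4a rose (0.78). Among the 7 were the phospholipid transfer gene Pltp (-1.63, SE 0.28), Scd1, the acyltransferase gene Agpat2 (-1.16, SE 0.30) and Scd2 (-1.08, SE 0.28). Pltp was also lower in LPS/NNK than in LPS (-1.30, SE 0.28, adjusted p = 0.0274), and no gene was called in LPS against NNK. The interaction was called for 13 of 27, beside the 39.0% of all items. It was negative for 11, with the smallest p for Pltp (-2.75), Agpat2 (-2.58), Fasn (-2.43) and Scap (-1.70), and positive for Pla2g4a (1.59) and Cept1 (1.53). With PBS 3 alone it was negative for 7 and positive for 1.

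Genes of lamellar bodies and related organelles followed no single direction. Of 27 measured, 8 rose and 6 fell in LPS against PBS. In NNK 8 rose and 4 fell (Hps3, Snap23, Lrrk2 and Lamp2), and in LPS/NNK 9 rose and 4 fell (Anxa7, Rab38, Atp11a and Snap23), near or below the shares of all items called. By PBS 3 alone 6, 3 and 6 were higher and 0, 1 and 1 lower. The lysosomal protease gene Ctsd rose by 2.28, 2.15 and 2.58 (SE 0.24). Higher in LPS/NNK than in NNK were 3 genes, Rab32 (2.21, SE 0.27), a GTPase of lysosome-related organelles, Hps4 (1.06) and Hps3 (0.84). In the same comparison 4 fell, Anxa7 (-1.38), the proton pump subunit gene Atp6v0d1 (-1.05, SE 0.29), Rab38 (-0.94) and Gde1 (-0.87). Atp6v0d1 was also lower in LPS/NNK than in LPS (-1.18). The interaction was negative for 5 genes (Atp6v0d1, Hps1, Ctsd, Gde1 and Ap3d1, -2.77 to -1.32) and positive for 3 (Lrrk2, Hps3 and Snap23, 1.30 to 1.76), 8 of 27 in all and below the 39.0% of all items.

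Of 27 regulators of the alveolar type 2 programme, 7 rose in LPS against PBS and 4 fell (Fgf7, Nr3c1, Yap1 and Nfib). In NNK 9 rose and 2 fell (Fgf7 and Nr3c1), and in LPS/NNK 7 rose and 5 fell (Yap1, Etv5, Nfib, Fgf10 and Nr3c1), which were smaller shares than those of all items. With PBS 3 alone 2, 3 and 3 rose and 2, 1 and 1 fell. The epithelial ETS factor gene Elf3 rose by 1.995, 2.08 and 1.35 (SE 0.32), and Stat3, the transducer of interleukin-6 type signals, by 1.27, 1.28 and 2.48 (SE 0.26). From NNK to LPS/NNK 2 rose, Id2 (1.33) and Stat3 (1.20, SE 0.26), and 7 fell, among them the Kruppel-like factor gene Klf5 (-1.59, SE 0.29), Etv5 and the mesenchymal growth factor gene Fgf10 (-1.37, SE 0.28). Stat3 was higher and Etv5 lower in LPS/NNK than in LPS. The interaction was negative for 8 of 27, with the smallest p for Klf5 (-2.61, SE 0.41), Elf3 (-2.72, SE 0.45) and Cebpa (-2.89, SE 0.61), which encodes a C/EBP factor. It was positive for Fgf7 (3.44, SE 0.59) and Nr3c1 (1.41), the glucocorticoid receptor gene. These 10 of 27 are near the 39.0% of all items, and with PBS 3 alone the interaction was called for 3 as negative and 1 as positive.

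Of 16 genes of surfactant clearance and sensing, 9 rose in LPS against PBS and 3 fell (Cd36, Tlr4 and Adgrf5). In NNK 7 rose and 2 fell (Marco and Cd36), and in LPS/NNK 8 rose and 2 fell (Cd36 and Adgrf5). Called genes were 12, 9 and 10 of 16, above the share of all items in LPS and near it in NNK and LPS/NNK. The GM-CSF receptor gene Csf2ra rose by 1.60 in LPS and 2.50 in LPS/NNK (SE 0.31). Sirpa, whose protein binds SP-A and SP-D on macrophages, rose by 2.04, 1.30 and 2.48 (SE 0.26). From NNK to LPS/NNK 6 rose, among them Csf2ra (1.55) and Sirpa (1.18), and 3 fell, Cd36, Adgrf5 (-1.30) and Lrp1 (-1.03), beside 7.77% of all items higher and 9.80% lower. ADGRF5 is the receptor that restrains the alveolar surfactant pool.

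Markers of immune cells moved with LPS beside the results above. Of 15 macrophage and monocyte markers, 9 rose in LPS, 8 rose and 2 fell in NNK (Marco and Ccr2), and 13 rose and 1 fell in LPS/NNK against PBS. Between NNK and LPS/NNK 11 rose, and the monocyte and endothelial gene Ly6c1 fell as it did against PBS. The shares of all items that were higher were 25.1%, 27.2% and 27.0% against PBS and 7.77% against NNK. With PBS 3 alone 9, 3 and 9 of these markers were called as higher against PBS, and 9 against NNK. On the scale of spiked control RNA 3, 0 and 2 were higher and 6, 11 and 7 lower against PBS, and 7 were higher against NNK. Of all items 88.6%, 91.5% and 91.4% were called against PBS on that scale, nearly all as lower, and 3.13% against NNK. Their summed level, in units of the 75th percentile, was 303 to 450 on PBS arrays, 601 to 875 on LPS, 617 to 840 on NNK and 732 to 1652 on LPS/NNK arrays. The complement gene C1qc rose by 4.28 in LPS, 1.76 in NNK and 5.25 in LPS/NNK (SE 0.30). Of 13 T and B lymphocyte markers, 9 rose in LPS, 3 rose (Cd3e, Cd22 and Cd5) and 2 fell (Cd3g and Ms4a1) in NNK, 10 rose in LPS/NNK against PBS, and 7 rose in LPS/NNK against NNK. With PBS 3 alone 5, 0 and 5 were called as higher against PBS, and 7 against NNK. On the scale of spiked control RNA 1, 0 and 1 were higher and 6, 13 and 8 lower against PBS, and 3 were higher against NNK, beside the same shares of all items. Their summed level was 13.4 to 21.1 on PBS, 104 to 140 on LPS, 17.3 to 21.5 on NNK and 95.8 to 103 on LPS/NNK arrays. All 28 of these markers were well above background on all arrays. Their part in the lower Sftpb of LPS/NNK was not tested.

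Markers of other lung cells were compared between LPS/NNK and NNK, where 9.80% of all items were lower. Among genes shared by lung epithelium were Ehf, which rose (1.13), and Esrp1, which fell (-0.92). Of 17 alveolar type 1 markers 3 fell, Scnn1g (-1.22), Cyp2b10 (-1.21) and Igfbp2 (-0.83). Of 11 club cell markers 3 fell, the secretoglobin gene Scgb1a1 (-1.43, SE 0.29), Aldh1a1 (-0.88, SE 0.21) and Bpifa1 (-3.40, SE 1.05). Of 10 ciliated cell markers 3 fell, Tubb4b (-1.44), Dnah5 (-1.39) and Tppp3 (-0.88), and of 14 endothelial markers 2 fell, Gja5 (-2.41) and Ednrb (-1.01). On the scale of spiked control RNA 0 alveolar type 1, 1 club, 0 ciliated and 1 endothelial marker were called as lower. On that scale 3.13% of all items were called. Median differences of these lists from PBS in LPS, NNK and LPS/NNK were 0.14, 0.66 and -0.02 for epithelial genes and -0.15, 0.24 and -0.55 for alveolar type 1 markers. They were 0.83, 0.62 and 0.16 for club cell markers, -0.00, 0.06 and -0.58 for ciliated markers and -0.27, 0.11 and -0.28 for endothelial markers. The summed level of the 10 alveolar type 2 genes was 593 to 865 on PBS, 1161 to 1489 on LPS, 1374 to 2004 on NNK and 1234 to 2469 on LPS/NNK arrays. That of club cell markers was 752 to 939, 1200 to 1755, 1287 to 1460 and 827 to 1833 in the same order.

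Within the 9 treated arrays Sftpb did not vary together with Sftpa1, Sftpc and Sftpd. As a description across these arrays, without a test, Sftpa1 and Sftpd had a Pearson correlation of 0.85. Sftpa1 and Sftpc had one of 0.645, and Sftpc and Sftpd one of 0.48. Those of Sftpb were -0.70 with Sftpa1, -0.22 with Sftpc and -0.46 with Sftpd. Of the 45 pairs of the 10 genes 23 were positive, with a median of 0.03. The arrays of a group share their treatment, and all share the scaling by the 75th percentile. The genes most like the mean of the 4 surfactant protein genes over these 9 arrays, of 13639 named genes, were Hsd11b1, Bspry, Mboat1, Inhbb, Tle2, Rbp4, Trdmt1 and Tmem54, with correlations from 0.91 to 0.96. Over all 12 arrays they were Tmem59l, Bspry, Apoc1, Inhbb, Rap1gap, Col18a1, Lztr1 and Shc3 (0.96 to 0.98), where PBS and treated arrays form separate clusters. The 4 surfactant protein genes themselves followed their mean less closely over the 9 treated arrays. Their correlations with it were 0.35 for Sftpa1, 0.37 for Sftpb, 0.72 for Sftpc and 0.48 for Sftpd.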

How the data were processed

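RNA of 12 lungs, 3 per group, was measured on Agilent 1-colour arrays. The deposited scanner files hold a processed signal for each spot, an intensity from which the background was subtracted and spatial trends were removed by Agilent Feature Extraction 10.7.3.1, per the file headers. The deposited series table holds log2 values of the same arrays, per the labels made with Feature Extraction 10.7 and Partek, and was used as an alternative. Its scaling was judged from the arrays' own values.

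Outlier spots were left out, spots of a probe were averaged, and log2 of the processed signal minus the array's 75th percentile over non-control spots was taken. Probes had to be well above background on all 3 arrays of some group to enter (28334 of 41137 probes), and the probe brightest on average stood for its gene, which gave 21856 items. Group means were fitted over all 12 arrays with limma 3.58.1 in R 4.3.3 (lmFit, eBayes), with 8 residual and 5.46 prior degrees of freedom and Benjamini-Hochberg adjustment over all items in each comparison. The fit was tested on simulated data. The number of arrays limits the precision, since an exact permutation test of 3 against 3 arrays cannot go below p = 0.1.

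The members and gene lists were chosen with earlier results of these data known. The text names all 10 members, up to 4 genes of each list per comparison with the smallest p, members of counts of 5 or fewer where named beside the count, and the 8 genes most correlated with the mean of the surfactant protein genes. Values without the doubted PBS arrays and on spiked control RNA stand beside the results of the 10 genes. Those on spiked control RNA, the single fits of dimmer probes and the repeated list counts were chosen after seeing the data. Counts without the doubted arrays stand beside several lists, and counts on spiked control RNA beside all lists but the epithelial one. The normexp alternative used the median spot signal with an offset of 50. Arrays sharing a replicate number had correlations of their deviations from -0.15 to 0.41. Arrays with unlike numbers were not compared in this way, so whether the numbers pair the arrays was not tested. The main fit did not pair them. Promoters are those of RefSeq, searched with Python 3.11.15, and figures were drawn with matplotlib 3.10.9. A result of the epithelial list is not reported here.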

Additional observations from a re-analysis of the deposited data

Results flagged for a closer look

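The interaction term of limma's fit over 12 arrays was called for 6 of the 10 genes. This term sets the difference that LPS made in mice given NNK against the one it made without NNK. It was -2.72 for Sftpb (adjusted p = 0.00208), -2.11 for Nkx2-1 (adjusted p = 0.00401), -1.49 for Lpcat1 (adjusted p = 0.0167), -1.30 for Slc34a2 (adjusted p = 0.0223) and -1.23 for Napsa (adjusted p = 0.00847), and 1.36 for Lamp3 (adjusted p = 0.0165). Over all items 39.0% had a called interaction. The PBS mean is part of the term, so a difference of PBS from all treated arrays enters it with its sign turned. For Napsa no difference among the treated groups was called: 0.35 for LPS/NNK against NNK, 0.12 for LPS/NNK against LPS and 0.22 for LPS against NNK. The values of Lpcat1, Slc34a2, Napsa and Nkx2-1 turned positive on the scale of spiked control RNA. Those of Lpcat1, Napsa and Slc34a2 were not called under normexp, quantile normalization, cyclic loess or with PBS 3 as the only control array, and that of Lamp3 was not called after normexp (1.67, adjusted p = 0.153) or with PBS 3 alone (1.16, adjusted p = 0.137). Those of Sftpb and Nkx2-1 were not called after normexp (-2.30 and -1.61) and on the scale of spiked control RNA (-0.40 and 0.20).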

How the results depend on the processing

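Over 1752 values of the 10 genes under alternatives, 1538 kept their side of the threshold without a called value turning. Another 120 lost a call, 42 gained one and 52 turned a called value or gained a call with the sign turned. The 1538 include 930 values called in neither setting, of which 77 changed sign. The 10 genes were above background on all arrays, which does not show whether the lower signal of the treated arrays affects their values.

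Calls among the 10 genes in LPS, NNK and LPS/NNK against PBS were 9, 9 and 6, all higher but Lamp3 in LPS. They were 1, 1 and 3 after normexp, 4, 6 and 3 with quantile normalization (2, 1 and 1 of them lower), 2, 5 and 2 with cyclic loess (1 lower in each) and 3, 4 and 4 with PBS 3 as the only control array. By spiked RNA they were 9, 5 and 7, all of them lower. Of all 21856 items, 12259, 11335 and 12104 were called in the main fit. After normexp these were 4033, 7764 and 5672, and by spiked RNA 19360, 19998 and 19987. A fixed effect for the slide left 5 in NNK and 3 in LPS/NNK, and with 1 array left out 5 to 9, 7 to 9 and 5 to 7. With the replicate block the LPS count was 5, and the block changed no other count against PBS by over 1.5 times, though it moved single calls.

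In LPS/NNK against NNK the count of 1 was 0 after normexp and by spiked RNA, 2 with cyclic loess, the slide as a fixed effect and probes above background on all arrays, 3 with the slide as a random block, and 1 to 3 with 1 array left out. In LPS/NNK against LPS the count of 0 was 1 with cyclic loess, probes above background on all arrays, the mean of all probes and the replicate block, and 0 to 3 with 1 array left out. In LPS against NNK the count of 0 was 1 with quantile normalization, cyclic loess and probes above background on all arrays, and 0 to 1 with 1 array left out. For the interaction the count of 6 was 0 after normexp, 3 with quantile normalization and cyclic loess, 2 by spiked RNA, and 5 to 6 with 1 array left out. Of all 21856 items, 8520 had a called interaction in the main fit, 35 after normexp and 13718 by spiked RNA. After normexp 327 items were called in LPS/NNK against NNK and 0 in LPS/NNK against LPS, so calls lost there were not particular to these genes. The cause of these changes was not tested.

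Values that turned, in LPS, NNK and LPS/NNK against PBS in that order, were as follows. With quantile normalization Sftpa1 was -0.78, -0.38 and -0.56, Sftpd was -0.16, -0.13 and -0.0907, and Sftpc was -0.41 and -0.16 in LPS and NNK. With cyclic loess Sftpa1 was -0.58, -0.59 and -0.48, Sftpc -0.67, -0.14 and -0.34, and Sftpd -0.18, -0.35 and -0.23. The dimmer Sftpa1 probe gave -0.27, -0.47 and -0.32. By spiked RNA Sftpa1 was -1.79, -2.004 and -1.79, Sftpc -1.52, -1.20 and -1.20, Sftpd -1.50, -1.87 and -1.68, and Abca3 -1.63, -0.80 and -0.96. On that scale Lpcat1 was -1.65, -1.23 and -2.06, Napsa -0.92, -1.36 and -1.20, Slc34a2 -1.99, -1.75 and -2.72, and Nkx2-1 -1.27, -1.21 and -2.28. Sftpb was -1.49 and -1.04 in LPS and NNK. Interactions by spiked RNA were 2.005 for Sftpa1, 0.83 for Lpcat1, 1.08 for Napsa, 1.02 for Slc34a2 and 0.20 for Nkx2-1. The dimmer Abca3 probe gave -0.88 in LPS/NNK against NNK. The median of all items lay at -2.60, -2.71 and -2.98 against PBS on the scale of spiked RNA, and at 2.35 in the interaction.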
